A study of Mus musculus with 24 samples.

Results

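The genes described here were close to silent in control MIN6 cells and expressed in MIN6 cells that overexpress miR-146a-5p. A gene was a member when it reached 5 CPM (a gene's reads per 1000000 reads that its library assigned to genes) in all 4 untreated OE libraries and stayed under 0.5 CPM in all 4 untreated Scr libraries. Of 17696 genes listed, 53 met both limits. Epithelial genes and a few others were left out by name (16 genes, of which 11 met the limits), and 42 members remained.

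MIN6 cells are insulin-secreting cells of a mouse insulinoma line. All groups were stable lines made with lentiviral vectors and puromycin and grown from picked single clones. Scr carried a scrambled sequence, ZIP an antisense sequence meant to inhibit miR-146a-5p, and OE extra copies of miR-146a-5p. By qRT-PCR in untreated cells, the study found the microRNA raised in OE and not changed in ZIP, compared with Scr. Each line was studied untreated (Scr, ZIP, OE) and after 24 h (Scr+Cy, ZIP+Cy, OE+Cy) in a mix of IL-1β (5 ng/ml), IFNγ (100 ng/ml) and TNFα (10 ng/ml), with 4 libraries of bulk mRNA in each of the 6 groups. The OE vector came from another maker and carried another fluorescent reporter than the vector shared by ZIP and Scr, so effects of the microRNA, the vector and the clone cannot be told apart. In bulk RNA, more cells that express a gene and more RNA per cell cannot be told apart either. No source used here says that libraries of one group came from separate cultures, so p-values measure the spread between these libraries. That spread was estimated for each gene over all 6 groups. The standard error (SE) of a comparison therefore also reflects stray libraries in groups that were not compared.

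A microRNA lowers the protein output of messages that pair with its seed, so genes that a microRNA represses directly would be expected to fall when it is in excess. Genes that go from silent to expressed are a different class. The members are not one pathway: they include receptors, secreted hormones, cell-surface and junction proteins, transporters and enzymes, several of them best known from neurons, leukocytes, kidney or pancreatic duct rather than from β cells. IL-1β and TNFα act mainly through NF-κB, and IFNγ through its own receptor and kinases, and both routes change the transcription of many genes in β cells.

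The overexpressed microRNA is shown first because its excess defines the OE line, with bases 2 to 8, its seed, in capitals (RefSeq, GRCm38.p6, chr11:43374435-43374456, minus strand).

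mmu-miR-146a-5p: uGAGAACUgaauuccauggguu

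Promoter sequences in RefSeq (GRCm38.p6, 250 bases before to 50 after a transcription start) were found for 27 of the 42 members, as 32 windows. The pair of windows with the longest stretch in common belonged to C130026I21Rik and Sp140, which lie 330.1 kb apart on chromosome 1 and both rose under cytokines, as described further on. They held an identical run, printed in capitals, against a longest run of 13 bases in any other pair of genes (491 pairs of windows compared). Sp140 encodes a nuclear body protein of immune cells, and the role of C130026I21Rik is not established.

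C130026I21Rik (chr1:85270517-85270677, minus strand): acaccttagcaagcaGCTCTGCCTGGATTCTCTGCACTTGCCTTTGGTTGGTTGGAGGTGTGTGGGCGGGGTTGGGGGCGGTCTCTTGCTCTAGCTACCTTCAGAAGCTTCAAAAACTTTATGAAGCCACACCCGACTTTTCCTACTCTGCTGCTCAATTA
Sp140 (chr1:85600554-85600729, plus strand): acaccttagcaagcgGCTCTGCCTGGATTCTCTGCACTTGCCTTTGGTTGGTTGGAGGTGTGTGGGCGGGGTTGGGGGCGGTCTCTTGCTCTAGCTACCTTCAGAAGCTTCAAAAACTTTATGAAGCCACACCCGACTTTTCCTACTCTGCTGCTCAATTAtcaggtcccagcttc

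Of all listed genes with a promoter in the table, 3 held this run. The other one, A530032D15Rik, is no member because it reached only 2.09 to 3.16 CPM in the OE libraries. It is named here after its values were seen, and its reads, like those of the other members of this repeated region, could have been divided between near-identical copies.

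A TATA box, the letters TATAAA read on the coding strand 25 to 40 bases before the start, stood in 4 of the 32 windows (12.5%). The share was 1.49% among 17365 promoters of all listed genes and 3.31% among promoters of genes under 0.5 CPM in every Scr library. The 4 are printed because they include the hormone gene Ppy and Dkk2, which had the largest fall under cytokines. TATAAA is in capitals.

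Dapl1 (chr2:59484603-59484662, plus strand): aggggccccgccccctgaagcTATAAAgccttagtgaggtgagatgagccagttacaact
Dkk2 (chr3:132085242-132085301, plus strand): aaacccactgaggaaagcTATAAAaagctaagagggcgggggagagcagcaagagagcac
Fetub (chr16:22918332-22918391, plus strand): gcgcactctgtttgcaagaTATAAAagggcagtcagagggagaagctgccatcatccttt
Ppy (chr11:102101310-102101369, minus strand): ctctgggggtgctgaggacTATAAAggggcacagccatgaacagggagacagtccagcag

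The E-box letters CACCTG, on either strand, were in 11 of 32 windows (34.4%), against 19.5% of all promoters and 24.4% of those of genes under 0.5 CPM in every Scr library. Among members raised by cytokines in OE, 3 of 7 windows held them, and each is shown with the letters in capitals. Gpx2 holds the reverse complement.

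Anks4b (chr7:120173662-120173721, plus strand): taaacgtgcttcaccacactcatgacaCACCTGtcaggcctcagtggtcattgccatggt
Cdcp1 (chr9:123216211-123216270, minus strand): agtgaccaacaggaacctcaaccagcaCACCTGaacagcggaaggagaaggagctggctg
Gpx2 (chr12:76795505-76795564, minus strand): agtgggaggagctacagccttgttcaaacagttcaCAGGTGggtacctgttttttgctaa

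At least 15 CG pairs, a simple mark of a CpG island, were present in 34.4% of member windows, 58.4% of all promoters and 24.5% of promoters of genes under 0.5 CPM in Scr. Member promoters thus stood between these sets in CG content. The interferon-type element (GAAA, any 2 bases, GAAA) and the grainyhead letters AACCGGTT were in 0 of 32 windows, against 3.07% and 0.23% of all promoters. The IFNγ-type letters TTCNNNGAA were in 6.25% of member windows against 7.05% of all, and the NF-κB-type element (GGGA, any 4 bases, CC) in 21.9% against 25.7%. Motifs other than TATAAA were read on both strands, and matches may overlap. A match is a stretch of letters and not a shown binding site.

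In untreated OE cells the 42 genes had mean levels from 5.42 CPM (Pik3c2g) to 55.3 CPM (Cckbr), with a median of 11.1 CPM. The median coefficient of variation over the 4 libraries was 13.6%. In Scr the group means ran from 0 to 0.388 CPM, and 3 members had no read in any Scr library. These levels chose the members, so no test is given for OE against Scr. Just inside the limits were Usp43 and Pik3c2g, at 5.15 and 5.17 CPM in their lowest OE library, and just outside were Cdx2 and Dlk1, at 4.91 and 4.85 CPM. On the Scr side, Slc35f3 and Usp43 were just inside, at 0.494 and 0.470 CPM in their highest Scr library. F5 and Krt18 were just outside, at 0.507 and 0.522 CPM.

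**Figure D1:**
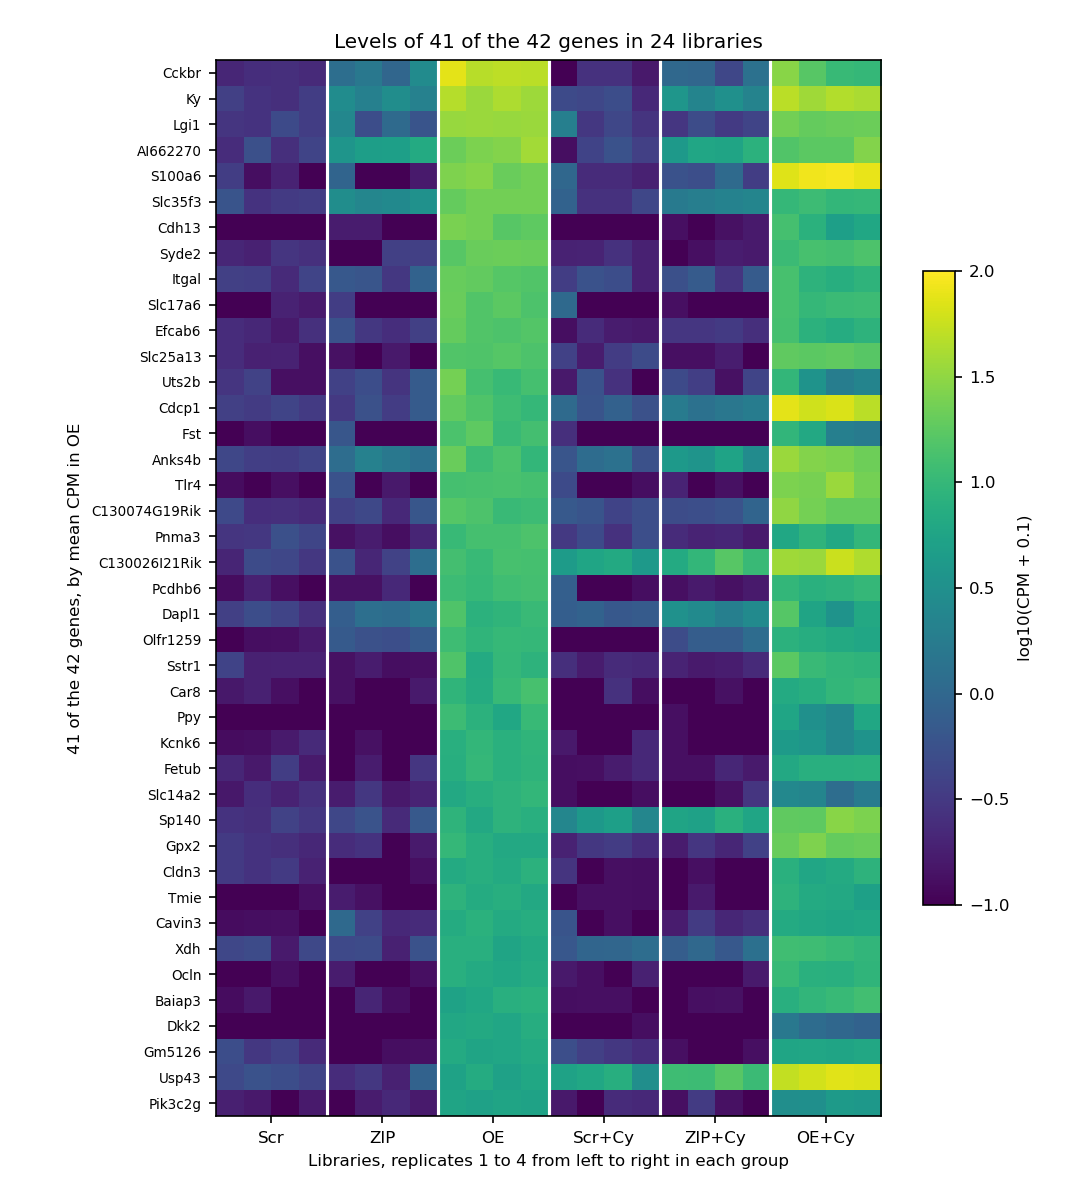
Heat map of log10(CPM + 0.1) for 41 of the 42 genes (vertical axis, by mean CPM in OE) in 24 libraries (horizontal axis, replicates 1 to 4 from left to right in each of 6 groups). OE and OE+Cy libraries are bright for all genes drawn, from a group mean of 1.05 CPM for Dkk2 in OE+Cy up to 81.7 CPM for S100a6 in OE+Cy, and a few genes such as Ky, Slc35f3 and AI662270 are also visible in ZIP and ZIP+Cy.

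Some libraries stood apart from their groups. Summed markers of fibroblasts and stroma (6 genes) were 50.4 CPM in ZIP replicate 1, 57.5 CPM in Scr+Cy replicate 1, 18.3 CPM in Scr replicate 1 and 0.533 to 5.20 CPM in the other 21 libraries. In OE they were at most 4.17 CPM, with Pdgfrb and Lum at 0. Results that rest on these libraries are given with and without them.

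The opposite pattern, with the limits exchanged between Scr and OE, was met by 18 genes. With ZIP in the place of OE the limits were met by 2 genes, and with Scr high and ZIP low by 4. Of the 42 members, 24 were also under 0.5 CPM in every ZIP library. Among all 17696 genes listed, 53 met the limits with OE high and ZIP low.

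The cytokine-treated libraries had no part in the choice of members. All 42 genes were called higher in OE+Cy than in Scr+Cy by edgeR (at least 1.5-fold, with a Benjamini-Hochberg adjusted p under 0.05 over all genes tested), where 12.7% of all genes were called higher. For the 34 members with more than 3 reads in Scr+Cy, the log2 differences ran from 2.71 (Sp140) to 7.90 (S100a6). Of the others, 5 had 1 to 3 reads there and 3 had none, for which only a lower bound can be given. The fitted median over all 42 was 6.42, and 6.14 with those 3 at their bound, against 0.01 over all genes. For all 42, every OE+Cy library lay above every Scr+Cy library, which held for 27.4% of all genes listed. The cells were the same clones as in the untreated groups. Deviations from group means also correlated between treated and untreated libraries of the same replicate number. The correlations were 0.413 to 0.626 in Scr and 0.163 to 0.455 in OE. The treated libraries are therefore not independent of those that chose the members. All 42 were likewise called higher in OE+Cy than in ZIP+Cy (13.7% of all genes). For the 31 members with more than 3 reads in ZIP+Cy the log2 differences ran from 1.47 (Dapl1) to 9.38 (Tlr4). The value of Dapl1 was 0.85 without OE+Cy replicate 1.

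The original limits of 5 and 0.5 CPM were met again by 20 of the 42 in OE+Cy and Scr+Cy. Among all 17696 genes listed, 45 met these limits in the treated cells. Of the other 22 members, 10 fell under 5 CPM in an OE+Cy library and 13 passed 0.5 CPM in an Scr+Cy library. The next paragraphs take the genes by what they do and give levels with the cytokine response in OE cells. These groups of genes were made after the names were known and were not tested as groups. Across the 42, 10 genes were called higher in OE+Cy than in OE (23.8%, against 11.8% of all genes) and 16 lower (38.1%, against 7.37%). The OE side of this comparison was used to choose the members. Members were required to be high in OE, which favours falls. This limit and the shares of 11.8% and 7.37% of all genes also apply to the counts by group below. Every OE+Cy library lay above every OE library for 13 members (24% of all genes), and every OE library above every OE+Cy library for 18 (16%). These shares apply wherever OE and OE+Cy are said below not to overlap.

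**Figure D2:**
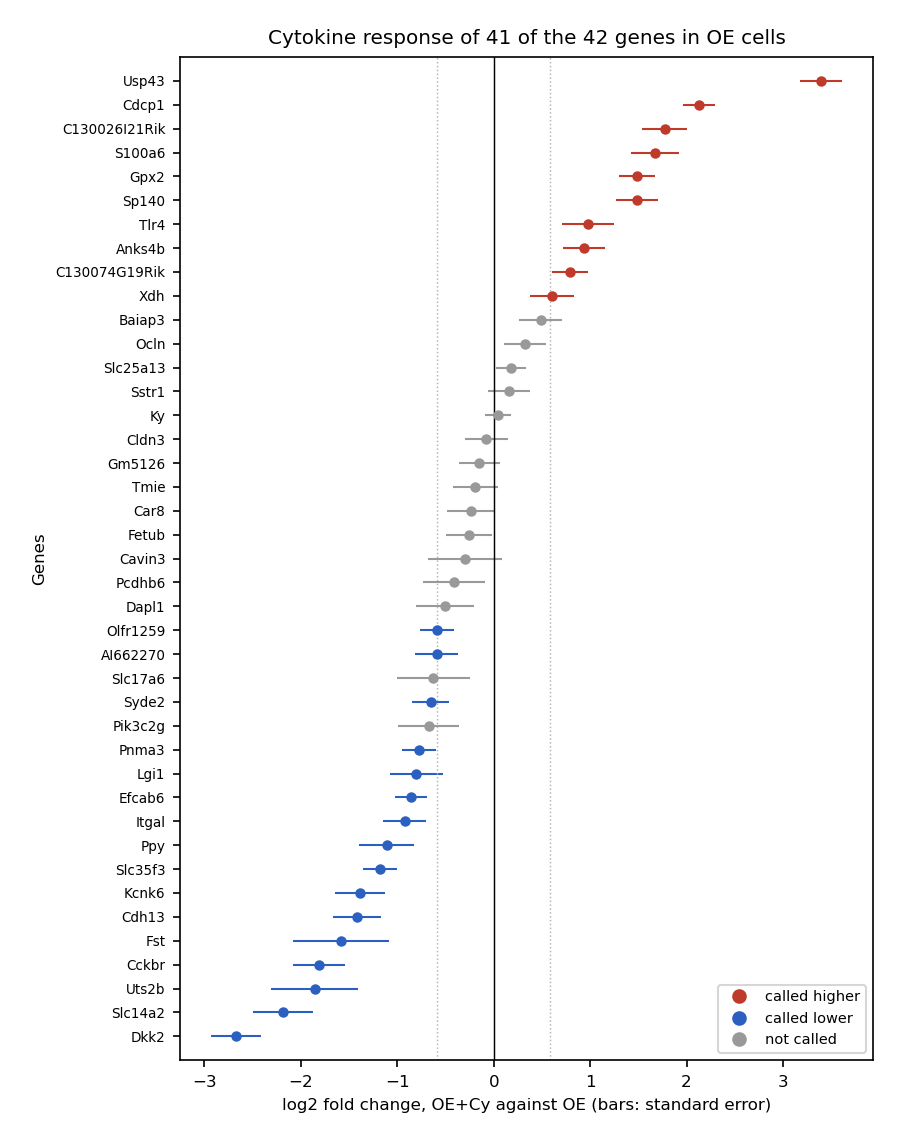
Log2 fold change of OE+Cy against OE with its standard error (horizontal axis) for 41 of the 42 genes (vertical axis), with calls in red (higher) and blue (lower), other genes in grey and dotted lines at a 1.5-fold change. Values run from a fall by 2.67 for Dkk2 to a rise of 3.39 for Usp43.

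Hormones, secreted proteins and receptors made up 10 of the members. Of these, 7 were lower in OE+Cy than in OE and 1 was higher. Cckbr (chr7:105425731-105436339, GRCm38, plus strand), the G protein-coupled receptor for gastrin and cholecystokinin, had the highest level of all members per length of exon as well as per library, 19.3 CPM per kb in OE. Its OE libraries held 75.7, 47.3, 50.0 and 48.2 CPM and its OE+Cy libraries 28.9, 16.3, 10.4 and 9.78 CPM, with no overlap. It fell by 1.81 on the log2 scale (SE 0.27, edgeR adjusted p = 6.02e-06). The remaining 16.3 ± 8.87 CPM in OE+Cy (SD, n = 4) compared with at most 0.170 CPM in any Scr+Cy library.

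Uts2b, a urotensin-related peptide, held 23.3, 12.9, 10.4 and 12.8 CPM in OE and 9.70, 3.37, 1.79 and 2.13 CPM in OE+Cy. Replicate 1 was the highest in both groups, and the groups did not overlap. Uts2b fell by 1.86 on the log2 scale (SE 0.45, edgeR adjusted p = 0.00143), and by 2.67 without OE+Cy replicate 1. Fst encodes follistatin, a secreted inhibitor of activin. It held 14.02, 18.1, 10.7 and 12.5 CPM in OE and 9.34, 6.36, 1.85 and 1.65 CPM in OE+Cy. Its fall by 1.58 (SE 0.49, edgeR adjusted p = 0.0124) was lost by the DESeq2 Wald test (adjusted p = 0.478).

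Dkk2, a secreted modulator of Wnt signalling, fell most of all members. It held 6.27, 6.46, 5.87 and 7.23 CPM in OE and 1.48, 1.06, 0.893 and 0.775 CPM in OE+Cy, a fall by 2.67 (SE 0.26, edgeR adjusted p = 5.75e-07). It had no read in any Scr, ZIP or ZIP+Cy library and 1 read in 1 Scr+Cy library. The ratio of OE+Cy to Scr+Cy was therefore 129.6, with an exact 95% counting interval from 22.8 to 5161.

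Lgi1, a secreted protein of neuronal synapses, had the smallest coefficient of variation of all members in OE (1.47%), at 34.7, 35.5, 34.6 and 35.5 CPM in OE and 23.0, 19.2, 20.3 and 21.08 CPM in OE+Cy. The groups did not overlap, and the fall by 0.80 (SE 0.28, edgeR adjusted p = 0.0207) was not called by DESeq2 (adjusted p = 0.25). Ppy, the hormone of islet PP cells, had no read in Scr, ZIP or Scr+Cy and 1 read in ZIP+Cy. It ranged from 6.03 to 11.2 CPM in OE and from 2.38 to 6.07 CPM in OE+Cy, a fall by 1.11 (SE 0.29, edgeR adjusted p = 0.0054). Ppy was at least 44.7-fold higher in OE+Cy than the level that 3 reads per library would give in Scr+Cy. With 500 bases of exon, Ppy reached 17.9 CPM per kb in OE, close to Cckbr on that scale.

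Olfr1259, an olfactory receptor, had 9.09 to 11.7 CPM in OE and 5.94 to 8.29 CPM in OE+Cy. It had no read in Scr+Cy, so it was at least 72.8-fold higher in OE+Cy than the level of 3 reads per library. Its fall by 0.59 (edgeR adjusted p = 0.0103) lay at the fold limit and was lost with DESeq2's size factors (0.58). Sstr1, a somatostatin receptor, and Fetub, a secreted protease inhibitor of the fetuin family, did not pass the test. Their log2 differences were 0.16 ± 0.22 and -0.26 ± 0.24 (SE).

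Tlr4, the receptor for bacterial lipopolysaccharide on macrophages and other cells, was the member of this group that rose. It held 13.1, 13.4, 13.7 and 12.9 CPM in OE and 25.4, 24.2, 35.1 and 23.8 CPM in OE+Cy, while its libraries in ZIP+Cy held at most 0.101 CPM. The rise of 0.98 (SE 0.27, edgeR adjusted p = 0.00446) was not called by DESeq2 (adjusted p = 0.507). Beside it, the summed level of 4 leukocyte markers was 2.04 to 4.52 CPM in OE and 1.63 to 2.69 CPM in Scr. Ptprc, which defines leukocytes, had 0.0067 CPM on average in OE and no read in OE+Cy. Whether other cells had a part in the level of Tlr4 was not tested beyond these values.

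Proteins of adhesion, junctions or the cell surface, with the muscle protein Ky counted among them, made up 9 members. Of these, 2 rose and 2 fell in OE+Cy. Cdcp1 (chr9:123172285-123216038, minus strand), a transmembrane substrate of Src kinases, held 18.9, 15.0, 11.7 and 9.84 CPM in OE and 75.0, 60.7, 68.1 and 48.4 CPM in OE+Cy. The libraries did not overlap, and the rise was 2.13 (SE 0.17, edgeR adjusted p = 3.12e-10). Anks4b, a scaffold of the brush border of epithelia, held 20.4, 11.3, 14.1 and 9.51 CPM in OE and 35.4, 27.8, 25.4 and 21.4 CPM in OE+Cy, a rise of 0.94 (SE 0.22, edgeR adjusted p = 0.00109).

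Cdh13 encodes T-cadherin, a cadherin held in the membrane by a lipid anchor. It held 24.8, 23.0, 16.7 and 17.8 CPM in OE, and 13.0, 8.19, 4.80 and 5.97 CPM in OE+Cy. It had no read in any of the 8 libraries of Scr and Scr+Cy. It was at least 82.8-fold higher in OE+Cy than the level of 3 reads per library in Scr+Cy, and it fell by 1.42 between OE and OE+Cy (SE 0.25, edgeR adjusted p = 0.000156). Itgal, the α chain of the leukocyte integrin LFA-1, held 20.04, 18.7, 16.1 and 15.4 CPM in OE and 13.3, 8.68, 7.54 and 8.94 CPM in OE+Cy, a fall by 0.92 (SE 0.22, edgeR adjusted p = 0.00147).

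Ky, a muscle protein of the transglutaminase fold, had the highest level after Cckbr in OE. It held 46.5, 35.2, 42.7 and 36.3 CPM in OE and 48.7, 36.8, 45.3 and 41.0 CPM in OE+Cy (difference 0.04 ± 0.13, SE, edgeR adjusted p = 0.826), with overlapping groups. Cldn3 and Ocln, the tight junction proteins claudin-3 and occludin, were at 7.33 ± 0.74 and 6.80 ± 0.67 CPM in OE (SD, n = 4), and neither passed the test in OE+Cy. Tmie, a part of the mechanotransduction channel of hair cells, and the protocadherin Pcdhb6 did not pass it either.

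Of the wider families, clustered protocadherins were called in both directions in OE+Cy against Scr+Cy, 15 of 58 listed genes higher and 26 lower. Of 22 listed cadherins, 7 were higher and 10 lower. Over all genes, 12.7% were called higher and 14% lower. The median log2 difference was -0.53 in either family.

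Among 5 transporters and channels none was called higher in OE+Cy than in OE and 3 were lower. Slc35f3, a carrier linked to thiamine, held 19.4, 22.8, 22.9 and 22.9 CPM in OE and 9.74, 11.3, 9.56 and 9.94 CPM in OE+Cy. This was a fall by 1.18 (SE 0.17, edgeR adjusted p = 5.26e-06) without overlap. Slc14a2, a urea transporter of the kidney, fell by 2.19 (SE 0.31, edgeR adjusted p = 3.31e-06), from 6.39, 7.53, 8.71 and 9.54 CPM to 2.38, 2.21, 1.09 and 1.65 CPM. The potassium channel Kcnk6 fell by 1.39 (SE 0.26, edgeR adjusted p = 9.09e-05).

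Slc17a6 encodes the vesicular glutamate transporter of excitatory neurons. It held 20.4, 15.0, 17.3 and 14.6 CPM in OE and 13.2, 9.81, 10.9 and 11.3 CPM in OE+Cy, with no overlap, and the difference of -0.63 ± 0.37 (SE) did not pass the test (edgeR adjusted p = 0.187). Slc25a13, the mitochondrial aspartate-glutamate carrier citrin, held 15.1, 14.9, 15.98 and 14.3 CPM in OE and 18.2, 17.5, 18.4 and 16.7 CPM in OE+Cy. Its libraries were tight in both groups, and the difference of 0.18 ± 0.15 (SE) did not pass the test (edgeR adjusted p = 0.37).

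Of 5 enzymes and enzyme-like proteins, 3 rose and none fell. Usp43 (chr11:67854523-67922153, minus strand), a ubiquitin-specific protease, had the largest rise of all members. It held 5.28, 6.97, 5.15 and 6.09 CPM in OE and 52.4, 61.8, 72.4 and 70.1 CPM in OE+Cy. The rise was 3.39 (SE 0.22, edgeR adjusted p = 5.11e-12), which took it from near the lower limit of membership to the second highest mean of the 42. Gpx2, the epithelial glutathione peroxidase that removes peroxides, held 9.72, 7.51, 6.28 and 6.36 CPM in OE and 20.6, 26.4, 19.4 and 20.7 CPM in OE+Cy, a rise of 1.49 (SE 0.19, edgeR adjusted p = 4.49e-07).

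Xdh, xanthine dehydrogenase of purine breakdown, rose by 0.60 (SE 0.23, edgeR adjusted p = 0.0355), close to the fold limit, and the call was lost without OE replicate 3 (0.51). Car8, a carbonic anhydrase relative without the enzyme activity, and Pik3c2g, a class II phosphoinositide 3-kinase, did not pass the test. Pik3c2g passed it with the replicate number as a block (-0.69, edgeR adjusted p = 0.0302).

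Of 6 proteins of intracellular signalling and trafficking, 1 rose and 2 fell. S100a6 (chr3:90612894-90614414, plus strand), a small calcium-binding protein, had the highest mean of all members in OE+Cy, 81.7 ± 8.59 CPM (SD, n = 4). It held 26.5, 28.6, 20.6 and 23.1 CPM in OE and 70.4, 85.8, 90.3 and 80.1 CPM in OE+Cy. Per length of exon it stood second in OE, at 18.1 CPM per kb, and reached 59.7 CPM per kb in OE+Cy. The rise of 1.67 (SE 0.25, edgeR adjusted p = 6.27e-06) was not called by DESeq2 (adjusted p = 0.135). All OE+Cy libraries lay above all OE libraries, an order that 24% of all genes had.

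Syde2, a GTPase-activating protein, fell by 0.66 (SE 0.19, edgeR adjusted p = 0.00779), from 16.3, 20.5, 20.97 and 20.4 CPM to 11.1, 13.5, 12.5 and 14.5 CPM. Efcab6, a protein with calcium-binding EF hands, fell by 0.86 (SE 0.17, edgeR adjusted p = 0.000172), from 19.4, 15.2, 14.3 and 15.8 CPM to 13.0, 8.44, 7.11 and 8.52 CPM. Both falls were without overlap. Cavin3, a coat protein of caveolae, and Baiap3, a relative of Munc13 in vesicle release, did not pass the test, nor did Dapl1, whose OE+Cy libraries spread from 3.37 to 15.98 CPM. Dapl1 passed it with the replicate block (-0.61, edgeR adjusted p = 0.0377).

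The remaining 7 members are nuclear proteins or genes of unsettled role. C130026I21Rik held 12.6, 10.3, 13.2 and 12.9 CPM in OE and 37.6, 35.3, 57.3 and 43.9 CPM in OE+Cy, a rise of 1.77 (SE 0.23, edgeR adjusted p = 1.07e-06). Sp140, whose promoter shares the run printed above, held 8.94, 6.41, 8.53 and 7.62 CPM in OE and 18.6, 18.1, 29.2 and 25.8 CPM in OE+Cy, a rise of 1.49 (SE 0.21, edgeR adjusted p = 3.77e-06). In both genes OE+Cy replicate 3 was the highest library, and all OE+Cy libraries lay above all OE libraries. C130074G19Rik also rose, by 0.79 (SE 0.19, edgeR adjusted p = 0.00133).

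AI662270, a non-coding transcript, held 20.9, 25.4, 27.8 and 38.6 CPM in OE and 15.2, 17.4, 17.6 and 27.4 CPM in OE+Cy. The groups overlapped, and its fall by 0.59 (SE 0.22, edgeR adjusted p = 0.0336) was lost without OE replicate 4 (-0.41, adjusted p = 0.169). Pnma3, from a family of genes derived from retrotransposon gag, held 10.4, 13.1, 12.9 and 14.3 CPM in OE and 6.01, 8.77, 6.32 and 9.65 CPM in OE+Cy, a fall by 0.78 (SE 0.18, edgeR adjusted p = 0.000796). Gm5126 did not pass the test and held 5.60 to 6.79 CPM in OE.

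Some markers of pancreatic duct cells were also high in OE cells. The 7 duct markers on the list summed to 486 to 610 CPM in OE and 458 to 673 CPM in OE+Cy, and to 3.60 to 18.1 CPM in the other libraries. The list includes genes that met the limits for members, among them Krt19, left out by name, so part of the sum was high by choice. Krt7 and Spp1 gave most of it, 413 and 91.8 CPM in OE. Muc1 and Cftr were at 0.767 and 0.0077 CPM in OE, and Sox9 had no read there. The part of this shift in the levels of the members was not tested. The 10 β cell markers were all expressed in every group and summed to 48410 to 53430 CPM in OE and 24420 to 32040 CPM in Scr. Of these, 7 had a higher mean in OE than in Scr, among them Ins1, Ins2 and Iapp, and Pdx1, Mafa and Nkx6-1 had a lower one.

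**Figure D3:**
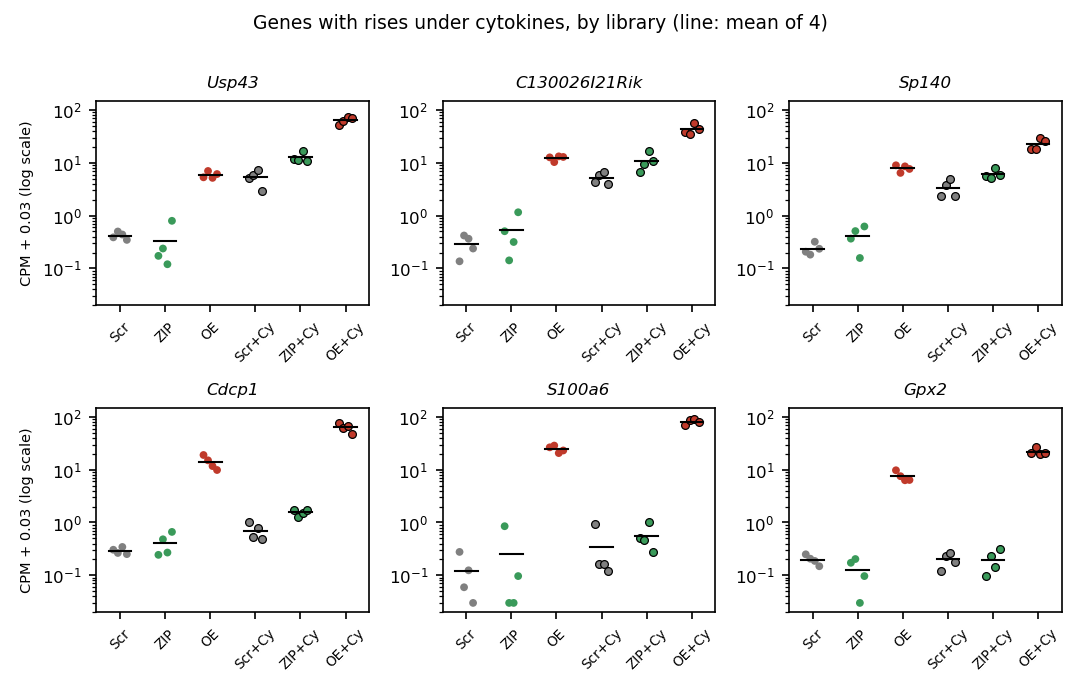
CPM + 0.03 on a log scale (vertical axis) in the 4 libraries of each of 6 groups (horizontal axis) for 6 genes that rose in OE+Cy, with outlined points for cytokine-treated libraries and a line at the group mean. Usp43, C130026I21Rik and Sp140 climb in all 3 lines, from means under 0.51 CPM in Scr and ZIP, while S100a6 and Gpx2 stay under 1 CPM in every library outside OE and OE+Cy.

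Some members also rose with cytokines in the Scr and ZIP lines, which do not carry the OE vector. The study reports that cytokines raised the microRNA itself in Scr cells, and by smaller factors in ZIP and OE cells. Whether this increase had a part in the rises given below was not tested. In Scr+Cy against Scr, 7 members were called higher (5.96% of all genes were) and none lower (1.61%). At an unadjusted p under 0.05 and the same fold limit, edgeR gave 13 higher (7.88% of all genes) and 3 lower (2.67%). The Scr side of this comparison chose the members, which favours rises. In ZIP+Cy against ZIP, where no library had a part in the choice, 7 were called higher (6.12% of all genes) and 1 lower (3.58% of all genes). Anks4b, C130026I21Rik, Cdcp1, Sp140, Usp43 and Xdh were raised in all 3 lines.

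Usp43 rose from 0.317 to 0.470 CPM in Scr to 5.19, 5.96, 7.42 and 2.91 CPM in Scr+Cy (log2 3.80, SE 0.34, edgeR adjusted p = 4.12e-09). It rose from 0.0899 to 0.767 CPM in ZIP to 11.7, 11.3, 16.7 and 10.97 CPM in ZIP+Cy (5.39, SE 0.34, edgeR adjusted p = 6.12e-12). The Scr+Cy libraries overlapped with untreated OE, and every ZIP+Cy library lay above every OE library. Without ZIP replicate 4, the highest of that group, the rise in ZIP+Cy was 6.41.

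C130026I21Rik rose from 0.106 to 0.390 CPM in Scr to 4.37, 5.74, 6.61 and 3.93 CPM in Scr+Cy (4.31, SE 0.41, edgeR adjusted p = 1.63e-08). In ZIP+Cy it held 6.77, 9.63, 16.6 and 10.6 CPM, against 0.112 to 1.13 CPM in ZIP (4.44, SE 0.36, edgeR adjusted p = 5.87e-10), and 5.21 without ZIP replicate 4. Sp140 moved with it. It held 2.28, 3.84, 4.90 and 2.28 CPM in Scr+Cy and 5.61, 5.17, 7.93 and 5.77 CPM in ZIP+Cy, with rises of 4.10 (SE 0.36, edgeR adjusted p = 3.9e-09) and 4.01 (SE 0.32, edgeR adjusted p = 4.41e-10).

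A530032D15Rik, the non-member with the same promoter run, went from 0.0165 to 0.735 CPM between Scr and Scr+Cy. It went from 0.102 to 1.82 CPM between ZIP and ZIP+Cy and from 2.71 to 6.83 CPM between OE and OE+Cy (means, n = 4). The order of the 6 group means was the same for it as for Sp140 and C130026I21Rik: Scr, ZIP, Scr+Cy, ZIP+Cy, OE and OE+Cy from low to high. Neighbours in this order could overlap, as ZIP+Cy and OE did for Sp140.

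The other genes raised in these lines stayed low. Cdcp1 reached 0.449 to 0.988 CPM in Scr+Cy and 1.22 to 1.73 CPM in ZIP+Cy. Its call in Scr+Cy was lost without Scr+Cy replicate 1 (log2 1.13, edgeR adjusted p = 0.103). Anks4b reached 0.812 CPM on average in Scr+Cy, a call lost without Scr+Cy replicate 3 (1.21, edgeR adjusted p = 0.103), and 3.88 CPM in ZIP+Cy (1.44, SE 0.29, edgeR adjusted p = 0.000461). Xdh stayed under 1.2 CPM in both. Slc25a13 was called in Scr+Cy at 0.0677 to 0.389 CPM, a call lost when Scr+Cy replicate 4 was left out (1.14, edgeR adjusted p = 0.118).

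In ZIP cells Dapl1 rose with cytokines, from 0.678, 1.14, 1.05 and 1.43 CPM to 3.22, 2.66, 1.88 and 2.64 CPM (1.28, SE 0.37, edgeR adjusted p = 0.0112). Lgi1 fell in ZIP+Cy by 1.85 (SE 0.61, edgeR adjusted p = 0.0269), a call lost without ZIP replicate 1 (-1.16, edgeR adjusted p = 0.189). Of the 10 members raised in OE+Cy, C130074G19Rik, Gpx2, S100a6 and Tlr4 were called in neither of the other lines. This does not show a response particular to OE. S100a6 had log2 differences of 1.71 ± 1.00 in Scr+Cy against Scr and 1.30 ± 0.79 in ZIP+Cy against ZIP (SE). C130074G19Rik had 1.20 ± 0.43 and 0.76 ± 0.39, the first of them called with the replicate block (1.21, edgeR adjusted p = 0.0239). In the same order, Gpx2 had 0.01 ± 0.48 and 0.85 ± 0.56, and Tlr4 had 2.54 ± 1.44 and -1.77 ± 1.245. The values of Tlr4 rested on at most 15 reads in any of these groups. An interaction between OE and Scr was not tested. The interaction between OE and ZIP was not called for any of the 4, with values of 0.03 for C130074G19Rik, 0.37 for S100a6, 0.64 for Gpx2 and 2.75 for Tlr4 (edgeR adjusted p from 0.134 to 1).

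The difference between cytokine responses was tested as an interaction. Of the 42 members, 5 (11.9%) had a lower log2 response in OE than in ZIP at an adjusted p under 0.05, a share near the 10.4% of all genes. Values are given for the 4 that reached a mean of 1 CPM in ZIP or ZIP+Cy, which Olfr1259 did not. Of these, 3 (C130026I21Rik, Sp140 and Usp43) reached it only in ZIP+Cy, so that limit favoured a large response in ZIP. The differences were -2.66 ± 0.45 for C130026I21Rik, -2.53 ± 0.40 for Sp140, -1.996 ± 0.46 for Usp43 and -1.78 ± 0.48 for Dapl1 (SE, edgeR adjusted p from 0.00011 to 0.00935). The members were chosen for a high level in OE, the starting point of that response. The rise of C130026I21Rik in CPM was larger in OE, from 12.2 to 43.5 CPM, than in ZIP, from 0.5 to 10.9 CPM. Without ZIP replicate 4 the difference was -3.43 for C130026I21Rik and -3.02 for Usp43, and without OE+Cy replicate 1 it was -2.40 for Dapl1. Olfr1259, under 1 CPM in ZIP, also passed the test, except without ZIP+Cy replicate 4. With the replicate block AI662270 (-0.85, edgeR adjusted p = 0.000902) and Slc35f3 (-0.71, edgeR adjusted p = 0.0485) passed it as well.

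**Figure D4:**
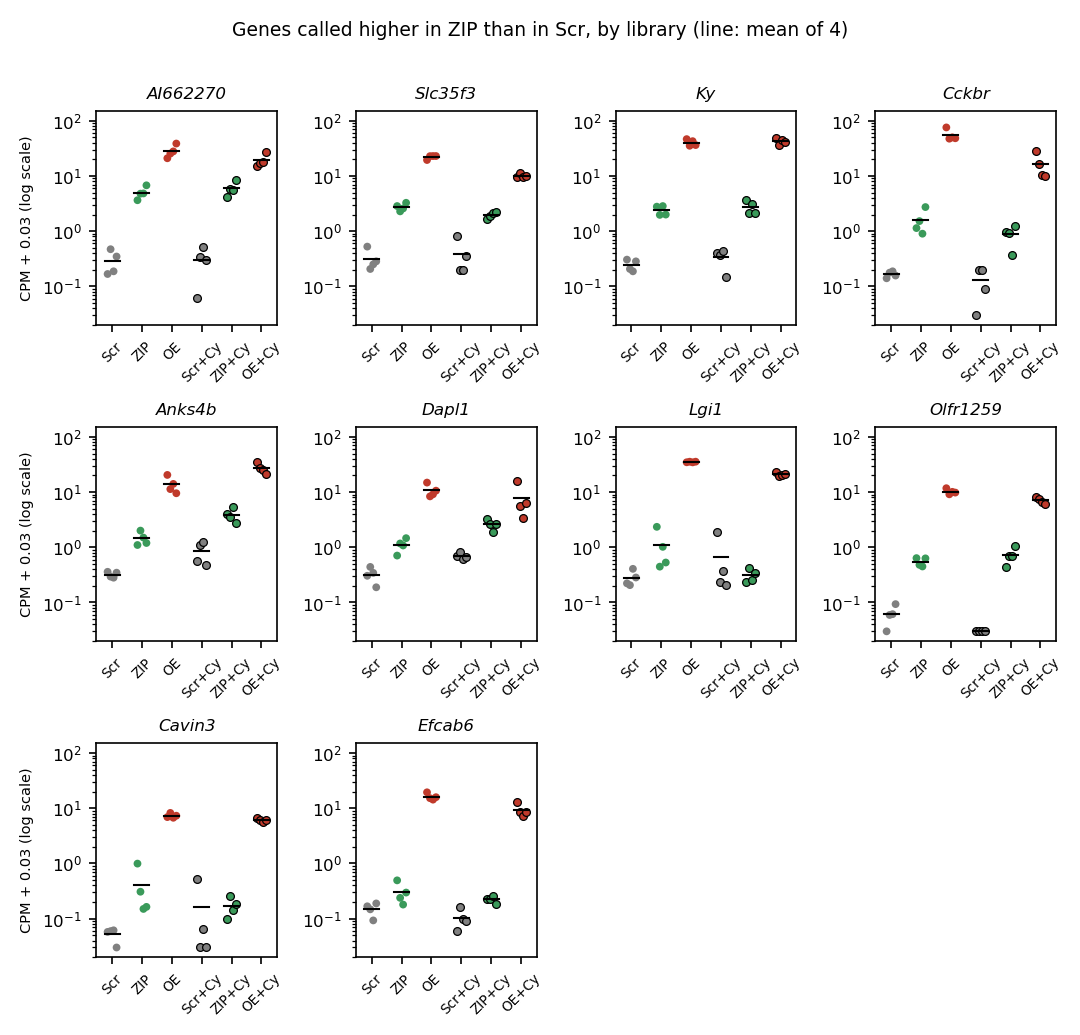
CPM + 0.03 on a log scale (vertical axis) in the 4 libraries of each of 6 groups (horizontal axis) for the 10 genes called higher in ZIP than in Scr, with outlined points for cytokine-treated libraries and a line at the group mean. The highest, AI662270, lies at 3.60 to 6.73 CPM in ZIP, between Scr (at most 0.440 CPM) and OE (at least 20.9 CPM), and Lgi1 and Cavin3 have their highest ZIP value in replicate 1.

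ZIP cells, in which miR-146a-5p was targeted for inhibition, also expressed some members above Scr. In ZIP against Scr, 10 members were called higher (6.29% of all genes) and 3 lower (5.89%). The Scr libraries had been chosen to be low, which favours a higher level in ZIP. In ZIP+Cy against Scr+Cy, 12 were called higher (5.89% of all genes) and 3 lower (6.7%). These libraries did not choose the members, but Scr+Cy cells are the same line as Scr. In Scr+Cy, 34 of the 42 still had a mean under 0.5 CPM, so the choice favours a higher level in ZIP+Cy as well. Higher in both comparisons were 8 genes, AI662270, Anks4b, Cckbr, Dapl1, Efcab6, Ky, Olfr1259 and Slc35f3. The median log2 difference over the 42 was 0.77 in ZIP against Scr (0.00 over all genes) and 0.08 in ZIP+Cy against Scr+Cy (-0.01 over all genes).

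AI662270 held 3.60, 4.75, 4.80 and 6.73 CPM in ZIP against 0.137 to 0.440 CPM in Scr, a log2 difference of 4.29 (SE 0.39, edgeR adjusted p = 5.03e-09). The ZIP level was 17.6% of that in OE, the largest share of any member. Slc35f3 held 2.82, 2.25, 2.55 and 3.23 CPM in ZIP (3.27, SE 0.28, edgeR adjusted p = 1.76e-09) and 12.3% of the OE level. Ky held 2.75, 1.94, 2.82 and 1.97 CPM (3.50, SE 0.29, edgeR adjusted p = 1.33e-09) and 5.9% of it.

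Anks4b held 1.07, 1.98, 1.47 and 1.17 CPM in ZIP (2.34, SE 0.41, edgeR adjusted p = 9.48e-05). Cckbr held 1.11, 1.49, 0.869 and 2.7 CPM (3.54, SE 0.66, edgeR adjusted p = 0.000194). Every ZIP library lay above every Scr library for 9 of the 42 members, where 10.1% of all genes had this order. They were these 5 genes, Dapl1 (1.94, SE 0.48, edgeR adjusted p = 0.00298), Lgi1, Cavin3 and Olfr1259, which held 0.420 to 0.606 CPM in ZIP and at most 0.0634 CPM in Scr. With the replicate block Itgal was also called higher in ZIP (1.12, edgeR adjusted p = 0.0426) and Sstr1 lower (-1.64, edgeR adjusted p = 0.0254). In the treated cells the differences for AI662270, Slc35f3, Ky and Anks4b were 4.51, 2.43, 3.19 and 2.303, the second of them 3.11 without Scr+Cy replicate 1. In ZIP+Cy the level of AI662270 was 30.6% of that in OE+Cy. That of Dapl1 was 33.2%, and 50.9% without OE+Cy replicate 1.

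The calls of Lgi1, Cavin3 and Efcab6 in ZIP rested on few reads or on 1 library. Lgi1 held 2.32, 0.416, 0.989 and 0.5 CPM in ZIP, and the difference of 2.13 (SE 0.61, edgeR adjusted p = 0.00977) was lost without ZIP replicate 1 (1.45, edgeR adjusted p = 0.0886), and kept when every library numbered 1 was left out (1.34, edgeR adjusted p = 0.00538). Cavin3 held 0.963, 0.277, 0.120 and 0.133 CPM in ZIP against a total of 3 reads in Scr, a ratio of 15.9 with an exact 95% counting interval from 5.11 to 80.4. Without ZIP replicate 1 its log2 difference fell from 3.86 to 2.82. Efcab6 reached at most 0.464 CPM, and its call was lost without ZIP replicate 1 (0.84, edgeR adjusted p = 0.201). In ZIP+Cy against Scr+Cy it was lost without Scr+Cy replicate 1 (1.16, edgeR adjusted p = 0.141).

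ZIP replicate 1 and Scr+Cy replicate 1 also held traces of members that other libraries of their groups lacked. S100a6 stood at 0.821 and 0.895 CPM in these libraries, with at most 0.0667 and 0.136 CPM in the others of each group. Slc17a6 stood at 0.250 and 0.957 CPM, with no read in the others. Tlr4 stood at 0.464 and 0.370 CPM. These are the libraries with the highest sums of stroma markers, whose part in the traces was not tested. Without Scr+Cy replicate 1 the log2 difference between OE+Cy and Scr+Cy was 9.29 in place of 7.90 for S100a6, 6.35 in place of 4.92 for Lgi1 and 5.38 in place of 4.70 for Slc35f3. Slc17a6 and Fst had no read in the other 3 Scr+Cy libraries, which puts them at least 115.6-fold and 49.1-fold higher in OE+Cy than 3 reads per library. Cavin3, Pcdhb6 and Tlr4 had 1 read left and Cldn3 had 2. The ratios were then 567 for Cavin3 (exact 95% counting interval from 101.4), 836.5 for Pcdhb6 (from 149.9), 2510 for Tlr4 (from 450.2) and 334.2 for Cldn3 (from 92.2).

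A few members went the other way in ZIP. Cldn3 had 1 read over the 4 ZIP libraries and 0.0951 to 0.220 CPM in Scr. Gm5126 had at most 0.0333 CPM in ZIP and 0.127 to 0.412 CPM in Scr. Pnma3 had at most 0.103 CPM in ZIP and 0.192 to 0.441 CPM in Scr. All 3 were called lower (edgeR adjusted p from 4.44e-05 to 0.00102), at levels of a few reads per library. In ZIP+Cy against Scr+Cy, Gm5126, Pnma3 and Slc25a13 were lower, with Pnma3 at the limit without Scr+Cy replicate 4 (-1.25, edgeR adjusted p = 0.05). Slc17a6, with reads in 1 library of either group, was called lower only with the replicate block (edgeR adjusted p = 0.0476, against 0.0564 without it).

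Members lay on 18 chromosomes, 6 of them on chromosome 7 and at most 4 on any other. Cavin3 and Cckbr lay 44.3 kb apart on chromosome 7, and C130026I21Rik and Sp140 were also within 1 Mb of each other. In OE+Cy against OE, Cckbr fell by 1.81, and the difference of Cavin3 was -0.30 ± 0.39 (SE) and not called.

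The genes next to the members were read in OE+Cy against Scr+Cy. Within 100 kb of 38 members lay 165 genes that are no members, of which 51 (30.9%) were called higher and 16 (9.7%) lower. Over all genes these shares were 12.7% and 14%. Without the Pcdhb cluster they were 26.6% and 9.74% of 154 neighbours, and among the 105 neighbours at a mean of 1 CPM or more, 26.7% and 11.4%. Genes were chosen as neighbours only by position, but paralogs and overlapping genes lie among them, and the counting by the authors is not stated to use strand.

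**Figure D5:**
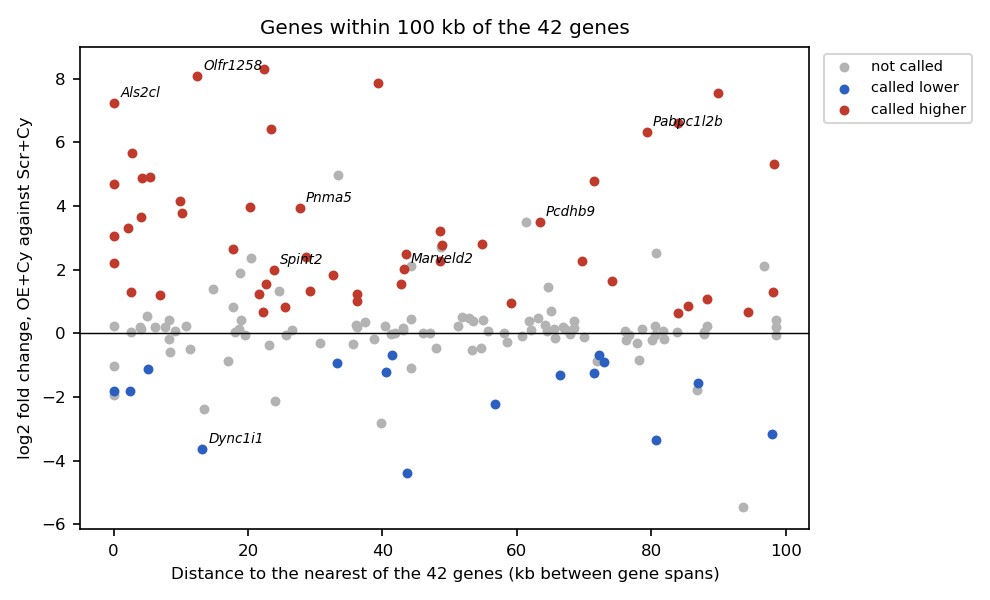
Log2 fold change of OE+Cy against Scr+Cy (vertical axis) for genes within 100 kb of the 42 genes, by distance in kb between gene spans (horizontal axis), with calls in red (higher) and blue (lower) and other genes in grey. Of these 165 genes, 51 were called higher and 16 lower, and high values occur over the whole range of distances.

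Some neighbours, named here after their values were seen, differed by as much as members did. Als2cl, which starts 101 bases from Tmie, had 0.0306 CPM in Scr and 4.89 CPM in OE (log2 difference in treated cells 7.22, edgeR adjusted p = 3.33e-14). On the X chromosome, Pnma5 beside Pnma3 went from 7.45 CPM in Scr+Cy to 119 CPM in OE+Cy, and Pabpc1l2b beside Gm5126 from 0.746 to 61.5 CPM. Olfr1258 beside Olfr1259 had no read in Scr+Cy and 1.14 CPM in OE+Cy. Within 100 kb of Pcdhb6, 10 other Pcdhb genes were called higher and Pcdhb1 lower. Gm37013, which overlaps Pcdhb6, was also lower (-1.82, edgeR adjusted p = 0.000104). Of the Pcdhb genes farther away, Pcdhb15 was called higher, and Pcdhb14, Pcdhb18, Pcdhb19, Pcdhb20, Pcdhb21 and Pcdhb22 were called lower.

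Other neighbours were also higher in OE+Cy than in Scr+Cy. Spint2, a protease inhibitor beside Kcnk6, went from 28.9 to 121 CPM between Scr+Cy and OE+Cy, and Marveld2, the tricellular junction protein beside Ocln, from 6.11 to 25.8 CPM. Around S100a6, 5 of 8 other S100a genes were called higher (S100a3, S100a4, S100a13, S100a14 and S100a16), at means of 0.281 to 8.07 CPM in OE+Cy, and S100a1, S100a8 and S100a9 were not called. Beside Sp140 and C130026I21Rik, Sp110, Gm7592, Gm7609, Gm38510, Gm2619 and LOC102633783 were called higher and Sp100 was not (0.53, edgeR adjusted p = 0.0718). Of these, Sp110 overlaps Sp140 and Gm38510 overlaps C130026I21Rik. Other neighbours fell, such as Dync1i1 beside Slc25a13 (-3.64, edgeR adjusted p = 1.08e-09) and Rab15 beside Gpx2 (-1.82, edgeR adjusted p = 9.31e-08).

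Reads of Olfr1259, Pcdhb6, C130026I21Rik, Sp140, Pnma3, Gm5126 and AI662270 could have been divided with paralogs or overlapping genes, and their values are uncertain to that extent. The libraries held 26657792 to 37168232 reads in genes, so 1 read was 0.0269 to 0.0375 CPM and a level under about 0.1 CPM rested on a few reads. Intervals and floors of 3 reads cover counting error only.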

How the data were processed

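Counts covered 24 libraries in 6 groups of 4. Per the labels' processing notes, FastQC, STAR 2.7.8a, Partek 11.0.24.0204, DESeq2 and mm10 were used, while the study's methods name other STAR and Partek releases. The authors deposited estimated counts per gene (30.1% not whole at a tolerance of 1e-06), with genes under 10 reads in total removed. They also deposited a median ratio normalized signal, used here only in an alternative choice of members. Estimated counts were rounded. All 17696 genes entered edgeR 4.0.16 (R 4.3.3, TMM, glmQLFTest, 6 group means). Calls needed a 1.5-fold change and a Benjamini-Hochberg adjusted p under 0.05. The fits were tested on simulated data.

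Members and lists were chosen with earlier results of these data known. Of the members, 1 enters the counts and medians and is not reported here by name. Values by library are given for the 15 members highest in OE, those called between ZIP and Scr or ZIP+Cy and Scr+Cy, and the 5 largest called rises and falls in OE+Cy. In 5 of 7 comparisons every same-number correlation of deviations from group means passed 0.1 (12674 genes), which was read as a sign of pairing. In ZIP against Scr, among those, replicate 3 correlated best with replicate 4 and replicate 4 with replicate 3. In OE+Cy against ZIP+Cy, not among those, each number correlated best with itself (lowest 0.089). The labels share the numbers and no source explains them. Alternatives were DESeq2 1.42.0, its size factors, filterByExpr, fits of single pairs of groups, the replicate block, unadjusted p-values, other limits of membership and each library left out.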

Additional observations from a re-analysis of the deposited data

Results flagged for a closer look

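In 4 of 75 groups of 4 libraries examined (members with values by library, at a mean of 1 CPM or more), 1 library lay far from the other 3 by Dixon's test. Chance gives about 1 in 20. Cckbr stood at 75.7 CPM in OE replicate 1, with the next highest at 50.0 CPM. The same library was lowest for Slc35f3 (19.4 CPM, next 22.8 CPM) and for Syde2 (16.3 CPM, next 20.4 CPM). Usp43 stood at 16.7 CPM in ZIP+Cy replicate 3, with the next highest at 11.7 CPM.

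The log2 cytokine response was smaller in OE than in ZIP, by the edgeR interaction test, for C130026I21Rik (-2.66, adjusted p = 0.000203), Sp140 (-2.53, adjusted p = 0.00011), Usp43 (-1.996, adjusted p = 0.00301) and Dapl1 (-1.78, adjusted p = 0.00935). The first 3 reached 1 CPM in the ZIP line only after cytokines, and all 4 had been chosen for a high level in untreated OE, so both choices favoured this direction.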

How the results depend on the processing

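All 42 members were called higher in OE+Cy than in Scr+Cy and than in ZIP+Cy under every alternative run. With single libraries left out, the members called were 23 to 25 in OE+Cy against OE, 11 to 16 in ZIP against Scr, 14 to 17 in ZIP+Cy against Scr+Cy, 7 to 9 in ZIP+Cy against ZIP, 5 to 7 in Scr+Cy against Scr and 4 to 6 in the interaction, and the number of members was 42 to 53 (53 without Scr replicate 1). At an unadjusted p under 0.05, 16 members were called in Scr+Cy against Scr and 9 in the interaction. Membership limits of 10 and 0.5 CPM gave 19 genes, 5 and 1 CPM 64, and 2 and 0.5 CPM 87. With the replicate number as a block, 28 members were called in OE+Cy against OE and 7 in the interaction, no call named here was lost, and the 8 gained are given beside their results. Of 714 recomputed values of called genes, 684 kept their call, 30 lost it and none changed direction. DESeq2 lost 5 of 102 calls. Leaving out every library numbered 1, an alternative chosen after the data were seen, lost 4 and gave 28 members called in OE+Cy against OE.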
